A study of Homo sapiens with 4 samples.

Results

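Oxidative phosphorylation is the step of respiration in which electrons from NADH and succinate pass along complexes I to IV of the inner mitochondrial membrane and the resulting proton gradient drives complex V, the ATP synthase. Most subunits of complexes I, III, IV and V, and all subunits of complex II, are encoded in the nucleus, while the others are encoded by mitochondrial DNA. Osteoblasts, the cells that lay down and mineralize bone matrix, use both glycolysis and respiration for this work. The nuclear-encoded subunit genes were followed here through differentiation of hFOB 1.19, a human fetal osteoblast line that carries a temperature-sensitive SV40 large T antigen. Members were chosen by gene symbol alone: symbols that begin with NDUFA, NDUFB, NDUFC, NDUFS or NDUFV and a number, SDHA to SDHD, and symbols that begin with UQCR, COX4 to COX8, or ATP5. Of the 19610 gene symbols in the mRNA table, 89 matched, with 338 of its 79798 transcripts. By complex, 39 symbols belong to complex I, 4 to complex II, 9 to complex III, 17 to complex IV and 20 to complex V.

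The study asked which RNAs change while these cells mineralize. Day 0 is the control, kept at the lower temperature at which the line proliferates, and the cells of days 3, 6 and 9 were undergoing mineralization at the higher temperature, in the same serum-containing medium. The series holds 1 library of total RNA per day, depleted of ribosomal RNA, so no difference between days has a replicate check, and no test or p-value is given. Temperature and time of differentiation cannot be told apart in any comparison with day 0, whereas days 3, 6 and 9 share 1 temperature. A lower share of cells of a type and less RNA per cell cannot be told apart either.

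Values are FPKM, fragments scaled by transcript length and by the mapped fragments of the library, summed over the transcripts of a symbol. They allow levels of different genes to be set side by side per length, but hold no counts, so the sequencing depth behind each value is unknown. Differences between days are log2 ratios taken with a pseudocount of 1 FPKM, on which scale changes of low genes appear too small, and the limit of size is 2-fold (a log2 ratio of 1). A symbol was compared if any library held 1 FPKM of it or more, which was so for 12859 symbols and for 81 of the 89 members. The other 8 were COX4I2, COX6A2 and ATP5EP2, listed at 0 in every library, and COX7A1, COX7B2, COX8C, ATP5L2 and UQCRHL, all below 1 FPKM throughout.

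The whole table summed to between 538072 and 617857 FPKM per library, with day 0 highest, and between 11956 and 12421 symbols reached 1 FPKM. Osteoblast markers were mixed. COL1A1, COL1A2, SPARC, RUNX2, ALPL, SPP1 and CDH11 reached 1 FPKM, while BGLAP (osteocalcin), IBSP, SP7 and BMP2 stayed under 1 FPKM in every library. RUNX2, the osteoblast lineage transcription factor, stood at 7.37, 26.2, 19.3 and 18.2 FPKM on days 0, 3, 6 and 9. Of 12 markers of other cell types, 9 were under 1 FPKM in every library. The other 3 were KRT18, CD68 and SOX9. KRT18, at 394, 216, 182 and 187 FPKM, made up most of the summed level of the 12 markers, which ranged from 252 to 413 FPKM and was highest on day 0. CD68, at 16.2, 37.5, 65.1 and 90.6 FPKM, and SOX9, at 1.21, 4.48, 5.08 and 5.32 FPKM, went the other way and were 2-fold higher on all 3 later days. The part of these markers in the results below was not tested.

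Most members were lower on the later days than on day 0, by modest amounts. Of the 81 members compared, 71 (87.7%), 71 (87.7%) and 59 (72.8%) were below day 0 on days 3, 6 and 9. Of all symbols compared, 55.1%, 54.8% and 55.1% were below day 0 on these days. The median log2 ratio of the members was -0.34, -0.34 and -0.22 in this order of days, beside -0.08, -0.08 and -0.09 over all symbols. Among the 8597 symbols that reached 10 FPKM the medians were -0.17, -0.16 and -0.14, and among the 76 members that did so they were -0.34, -0.34 and -0.22. On all 3 later days, 56 members were below day 0 and 7 were above it. Counts of genes below or above day 0, here and in later paragraphs, are as deposited. The whole table summed to 87.1%, 88.4% and 92.2% of day 0 on days 3, 6 and 9. After rescaling to the same sum, fewer members would therefore lie below day 0, and those counts are not given here. Since all 3 ratios are taken to the same day 0 library, a deviation of that library enters each of them.

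**Figure D1:**
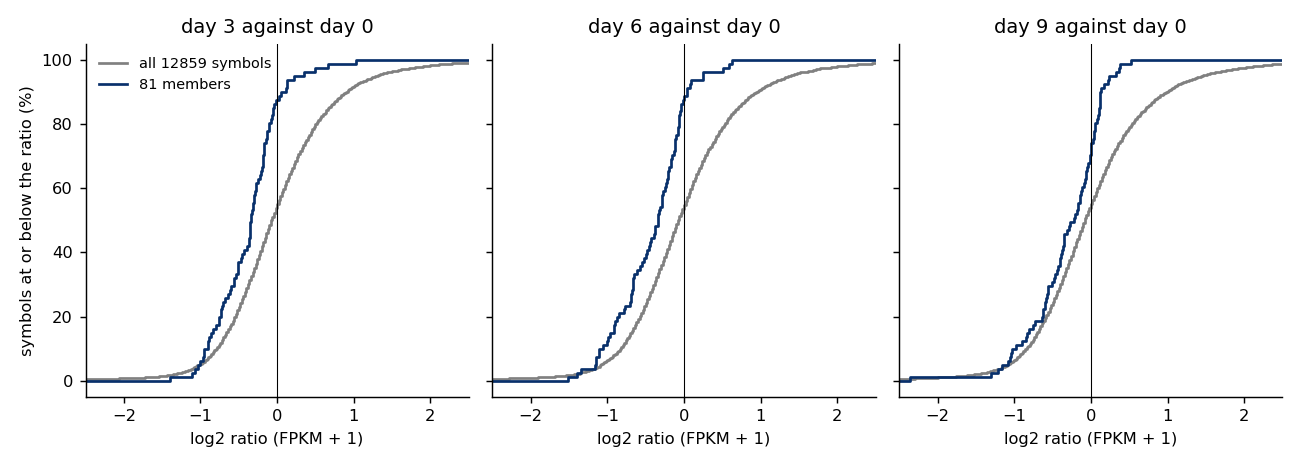
Cumulative share of symbols, in percent, at or below each log2 ratio to day 0, for the 81 members (blue) and all 12859 symbols compared (grey), 1 panel per later day. With FPKM as deposited, the member curve crosses 0 at 87.7% on days 3 and 6 and at 72.8% on day 9. The grey curve stands there at about 55.1%, 54.8% and 55.1%.

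Few members went past 2-fold. On day 3, 5 members (6.17%) were 2-fold lower, where 5.3% of all symbols were. On day 6 there were 10 (12.3%), beside 6.42% of all symbols, and on day 9 there were 8 (9.88%), beside 6.52%. In the other direction, 1 member was 2-fold higher on day 3 and 0 on days 6 and 9, where 8.13%, 9.01% and 9.6% of all symbols were. At a limit of 1.5-fold, 24, 28 and 21 members were lower (29.6%, 34.6% and 25.9%), beside 18.5%, 20.1% and 20.4% of all symbols. At that limit 2, 2 and 0 members were higher, beside 17.4%, 18% and 18.1%. In all, 13 members were 2-fold lower on at least 1 day and 2 of them, ATP5B and NDUFB10, on all 3 days. Many of these calls depend on scaling. With each library rescaled to the same median, 2, 8 and 4 members were 2-fold lower, and with each rescaled to the same sum, 1, 4 and 4 were. The shares of all symbols past the limit after rescaling were not worked out, here or for the gene lists below. The rescaled counts should therefore not be set against the shares of all symbols as deposited. ATP5B was past the limit on all 3 days under both, while NDUFB10 was past it on day 6 alone, and the calls of ATP5F1, NDUFV2, NDUFS3, NDUFA9 and NDUFA10 were lost under both. As deposited, all 13 belong to complexes I and V. On days 3, 6 and 9 there were 3, 5 and 3 of complex I and 2, 5 and 5 of complex V. Most of the members compared are of these complexes, with 39 in complex I and 18 in complex V. Complexes II, III and IV hold 4, 8 and 12. The counts of days 6 and 9 include ATP5S and the read-through symbol NDUFC2-KCTD14, both described below. Whether the calls gather in complexes I and V beyond their share of members was not tested. At 1.5-fold, 19 members were lower on all 3 days.

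At constant temperature the members moved little between days 3 and 6 and were slightly higher on day 9. The median log2 ratio of day 6 against day 3 was -0.01 for the members and 0.00 for all symbols, and 0 members were past 2-fold in either direction, beside 1.05% of all symbols. For day 9 against day 6 the medians were 0.13 and 0.01, and 68 of 81 members (84%) were higher on day 9, beside 52.8% of all symbols. No member was past 2-fold in that comparison either, beside 0.544% of all symbols. The whole table summed to 545948 FPKM on day 6 and 569922 FPKM on day 9. Rescaling to the same sum would therefore lower the ratios of day 9 to day 6, and the count of 68 with them. Part of this difference thus depends on scaling, and the rescaled count is not given here. Of the 71 members that were below day 0 on day 3, 52 were higher on day 9 than on day 3, and 15 of the 71 were above day 0 on day 9.

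**Figure D2:**
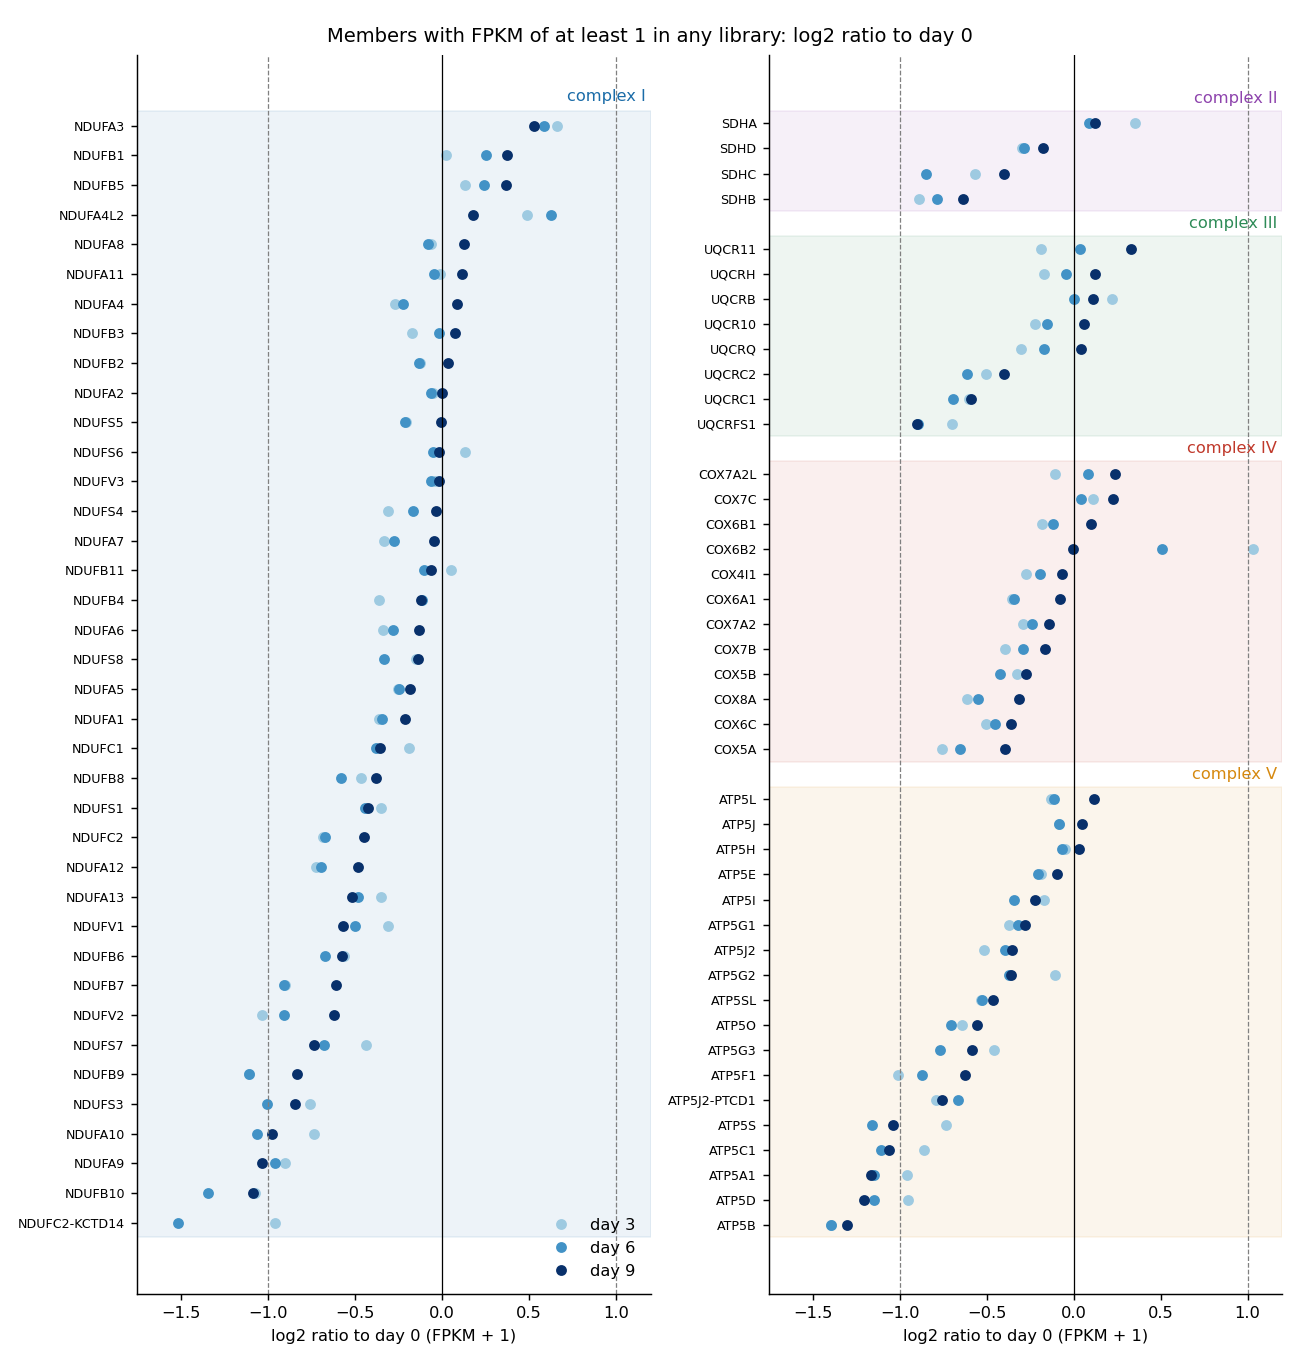
Log2 ratio to day 0 (x axis, after 1 was added to each FPKM) for members that reached 1 FPKM, 1 row per gene, grouped by complex and ordered by the day 9 ratio. Points are days 3, 6 and 9, dashed lines mark 2-fold, and NDUFC2-KCTD14 has no day 9 point because it was listed at 0. Apart from COX6B2 on day 3 at 1.03, the points beyond the dashed lines lie on the lower side, in complexes I and V. These complexes hold most of the members shown.

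Promoters of respiratory genes are known for sites of NRF1 (nuclear respiratory factor 1), of the ETS factor GABP and of YY1, and windows around the annotated starts were searched for their core letters on both strands. RefSeq windows of the GRCh38.p14 build, from 250 bases before to 50 bases after a start, were matched to 68 members, 20 of them through a newer symbol, and 65 of the 68 had reached 1 FPKM. CGCANGCG, the NRF1 core, was found for 24 of the 65 members (36.9%), beside 21.8% of the 10351 compared symbols with a window and 3527 of all 35116 windows. CCGGAAG, an ETS core, was found for 20 (30.8%), beside 22.3% of symbols and 10.3% of windows. AAGATGGC, a YY1 core, was found for 12 (18.5%), beside 6.39% of symbols and 2.89% of windows. A symbol counts once whatever its number of windows, which was 1.2 on average for these members and 1.47 for all compared symbols, and 0 pairs of different motifs overlapped in the member windows. Of the 9 members with a window that were 2-fold lower on any day, 2 held each motif, which were ATP5C1 and NDUFA9 for NRF1, ATP5A1 and NDUFS3 for ETS, and ATP5F1 and NDUFA9 for YY1. Of the other 56 members, 22, 18 and 10 held them.

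The sites below set members that were 2-fold lower beside members that were near or above day 0 on day 9, to show that the same core letters occur in both. Not all matches of these members are printed. NDUFA9, ATP5J and NDUFA3 also hold the YY1 core, and ATP5J the ETS core. Each is 30 bases of RefSeq sequence in the direction of transcription, with the motif, or its reverse complement, in capitals. In the order printed they lie at chr10:7788145-7788174 (plus strand), chr12:4649024-4649053 (plus), chr21:25735155-25735184 (minus), chr19:54102772-54102801 (plus), chr18:46098326-46098355 (minus), chr16:85799686-85799715 (plus), chr1:111449451-111449480 (plus) and chr5:53560649-53560678 (plus).
ATP5C1, NRF1 core, 2-fold lower on days 6 and 9: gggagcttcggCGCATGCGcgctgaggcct
NDUFA9, NRF1 core, 2-fold lower on day 9: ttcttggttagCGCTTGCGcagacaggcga
ATP5J, NRF1 core, near day 0: cactcaaagagCGCATGCGtacagagcaag
NDUFA3, NRF1 core, above day 0: gtgctccagggCGCACGCGcagccctggga
ATP5A1, ETS core, 2-fold lower on days 6 and 9: gaggggcagtaCTTCCGGgtcaggtgggcc
COX4I1, ETS core, near day 0 on day 9: ggccttgctctCTTCCGGtcgcgggacacc
ATP5F1, YY1 core, 2-fold lower on day 3: acttgtgagcgGCCATCTTggtcctgccct
NDUFS4, YY1 core, near day 0 on day 9: ttgcctgcagcAAGATGGCggcggtgtcaa
ATP5C1 and ATP5J hold the same 8 letters, CGCATGCG, and had log2 ratios of -1.06 and 0.05 on day 9. NDUFS4, an accessory subunit of complex I, had 100.5, 80.7, 89.3 and 98.3 FPKM and a log2 ratio of -0.03 on day 9. A match of letters is a description of the window and says nothing of whether a factor was bound in these cells.

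The complexes differed in how far their summed FPKM lay below day 0. Complex V, the ATP synthase, summed to 71.1%, 68.0% and 71.9% of its day 0 level on days 3, 6 and 9. Complex I, the NADH dehydrogenase, summed to 79.6%, 79.2% and 87.2%. Complex II, the succinate dehydrogenase, summed to 77.3%, 71.2% and 80.9%. Complex IV, the cytochrome c oxidase, summed to 79.3%, 81.4% and 92.2%. Complex III, the cytochrome bc1 complex, summed to 83.2%, 86.7% and 98.9%, the highest of the 5 on each day. The median log2 ratio on day 9 followed the same order as these sums on day 9, with -0.51 for complex V, -0.29 for complex II, -0.18 for complex I, -0.11 for complex IV and 0.05 for complex III. The complex V median includes ATP5S, ATP5SL and ATP5J2-PTCD1, which are described apart below and had a median of -0.76. Without these symbols the median gene of complex V was ATP5G2, at -0.36. They held 35.9 of the 2899 FPKM of complex V on day 0, so its sum hardly rests on them. All members together summed to 10744, 8328, 8295 and 9154 FPKM, which is 77.5%, 77.2% and 85.2% of day 0. The whole table stood at 87.1%, 88.4% and 92.2% of day 0 on the same days. With each library rescaled to the same sum, complex III on day 9 lay above day 0, at 107%, and complex IV at 99.99%, while complex V stayed at 78.0%.

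**Figure D3:**
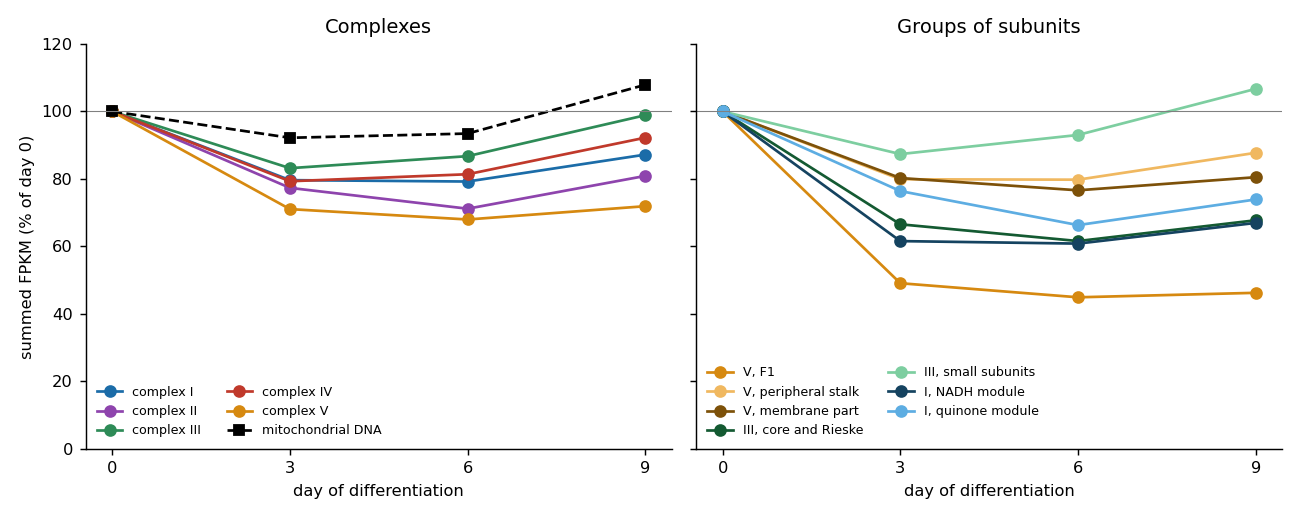
Summed FPKM in percent of day 0 (y axis) against day of differentiation (x axis), for complexes I to V and the genes of mitochondrial DNA (left) and for groups of subunits (right), with 1 library per day. The F1 part of complex V lies lowest, at 44.9% to 49.1%, and the small subunits of complex III end above day 0, at 107%.

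Within complex V the difference lay mainly in F1, the catalytic head with its central stalk. Its 5 genes summed to 49.1%, 44.9% and 46.2% of day 0, and 4 of the 5 were 2-fold lower on days 6 and 9. With each library rescaled to the same sum, ATP5B alone was past the limit on day 6, where ATP5A1, ATP5C1 and ATP5D had log2 ratios of -0.97, -0.93 and -0.97, and ATP5B, ATP5A1 and ATP5D were past it on day 9. ATP5B encodes the catalytic beta subunit and had 306, 116, 116 and 124 FPKM on days 0, 3, 6 and 9. Its 3 later libraries lay close together and well under day 0, with log2 ratios of -1.40, -1.40 and -1.30. ATP5A1, the alpha subunit, had 206, 105, 92.2 and 91.2 FPKM, with log2 ratios of -0.96, -1.15 and -1.16. ATP5C1, the gamma subunit that forms the turning shaft, had 157, 86.1, 72.5 and 74.9 FPKM, with log2 ratios of -0.86, -1.11 and -1.06. ATP5D, the delta subunit of the central stalk, had 113, 58.0, 50.4 and 48.4 FPKM, with log2 ratios of -0.95, -1.15 and -1.21. Its leading transcript alone was inside the limit on day 6, at -0.87. In these 3 genes, as in ATP5B, day 0 was the highest library and the values of days 6 and 9 differed little. ATP5E, the epsilon subunit, was the exception in F1, at 49.4, 43.2, 42.7 and 46.2 FPKM, with a log2 ratio of -0.09 on day 9.

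The peripheral stalk, which holds the head still against the rotor, summed to 79.9%, 79.8% and 87.7% of day 0, and its 4 subunits did not move alike. ATP5F1, the b subunit, had 103, 50.7, 55.8 and 66.4 FPKM, and was 2-fold lower on day 3 (log2 ratio -1.01) but not on day 6 (-0.87) or day 9 (-0.62). ATP5O, the OSCP subunit that joins the stalk to the head, had 135, 85.8, 82.0 and 91.2 FPKM. ATP5H, the d subunit, had 185, 178, 176 and 188 FPKM, and ATP5J, coupling factor 6, had 156, 147, 147 and 161 FPKM. ATP5J holds the same NRF1 core letters as ATP5C1 (above). ATP5H and ATP5J were thus within 0.09 of day 0 on the log2 scale in every library, beside an F1 head whose median was -1.16 on day 9.

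The membrane part of complex V summed to 80.3%, 76.6% and 80.5% of day 0, with 0 of its 6 genes past 2-fold. ATP5J2, the f subunit, was the most abundant member of all, at 585, 410, 445 and 457 FPKM. ATP5I, the e subunit, had 316, 280, 249 and 270 FPKM, and ATP5L, the g subunit, had 65.1, 59.4, 60.0 and 70.7 FPKM. The c subunit, which makes up the rotor ring, is encoded by 3 genes with the same mature protein. ATP5G2 had 298, 276, 230 and 233 FPKM, ATP5G3 had 100, 72.7, 58.6 and 66.5 FPKM, and ATP5G1 had 89.0, 68.6, 71.2 and 73.1 FPKM. ATP5G2 gave 61.2%, 66.2%, 64.0% and 62.5% of their sum, ATP5G1 between 16.4% and 19.8%, and ATP5G3 between 16.3% and 20.6% of the sum, which was 488, 418, 360 and 372 FPKM. These genes share coding sequence, so the division of reads among them is uncertain.

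Of the other ATP5 symbols, ATP5S, known as coupling factor B, had 4.73, 2.45, 1.56 and 1.79 FPKM, and was 2-fold lower on day 6 (-1.16) and day 9 (-1.04). Its leading transcript alone was inside the limit on both days, at -0.95 and -0.93. ATP5SL, an assembly factor of complex I in spite of its symbol, had 27.7, 18.9, 18.9 and 19.8 FPKM. The read-through symbol ATP5J2-PTCD1 had 2.68, 1.13, 1.32 and 1.18 FPKM, and its reads cannot be told apart from those of ATP5J2 over their common exons.

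**Figure D4:**
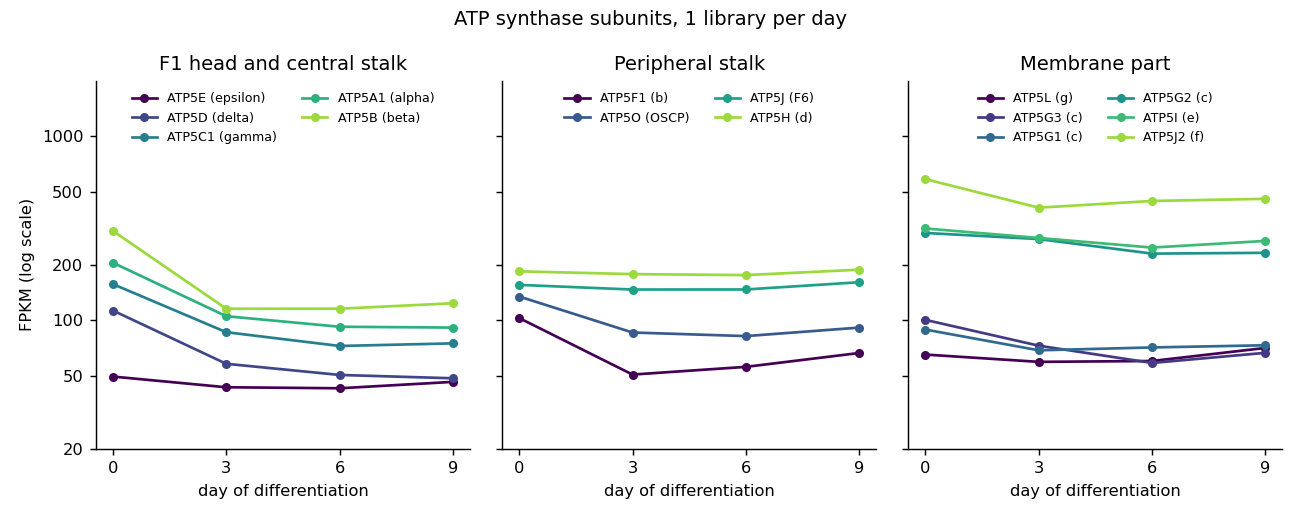
FPKM on a log scale (y axis) against day of differentiation (x axis) for the ATP synthase subunits, 1 line per gene and 1 point per library. In F1, 4 of 5 lines drop after day 0, ATP5B from 306 to 116 FPKM on day 3, while ATP5H and ATP5J of the peripheral stalk stay between 176 and 188 and between 147 and 161 FPKM.

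In complex I, both groups of core subunits summed to a lower share of day 0 than the accessory subunits. The NADH-oxidising module, where electrons enter from NADH, summed to 61.6%, 60.8% and 67.0% of day 0. NDUFV2, one of its iron-sulfur subunits, had 142, 68.5, 75 and 91.6 FPKM and was 2-fold lower on day 3 (-1.04), but not on day 6 (-0.91) or day 9 (-0.62). NDUFV1, which carries the flavin, had 61.3, 49.2, 43.1 and 41.1 FPKM, and NDUFS1, the largest iron-sulfur subunit, had 43.9, 34.2, 32 and 32.5 FPKM. The sum of this module rests largely on NDUFV2, which held 142 of its 247 FPKM on day 0. Its median log2 ratio was -0.35, -0.50 and -0.57, beside -0.31, -0.25 and -0.12 for the accessory genes. By median the module was thus close to the accessory genes on day 3. The quinone module, which passes the electrons to coenzyme Q, summed to 76.4%, 66.3% and 73.9%. In it, NDUFS3 had 58.6, 34.2, 28.6 and 32.2 FPKM and was 2-fold lower on day 6 (-1.01), while its ratios on days 3 and 9 were -0.76 and -0.84. NDUFS7, which carries the last iron-sulfur cluster before coenzyme Q, had 46.2, 33.9, 28.5 and 27.4 FPKM, and NDUFS8 had 146, 132, 116 and 133 FPKM.

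The 29 accessory genes of complex I, which surround the core and are needed for its assembly or stability, summed to 81.2%, 81.6% and 89.6% of day 0, and 24, 26 and 21 of them were below day 0. NDUFB10 had 178, 83.9, 69.5 and 83.2 FPKM, with log2 ratios of -1.07, -1.34 and -1.09 as deposited and of -0.87, -1.16 and -0.97 after rescaling to the same sum. NDUFB9 had 161, 74.1, 73.8 and 89.9 FPKM, with log2 ratios of -1.11, -1.11 and -0.83, and was inside the limit on all 3 days after rescaling to the same sum. Both are subunits of the membrane arm, and in both day 6 was the lowest library. NDUFA10 had 58.4, 34.8, 27.5 and 29.3 FPKM and was past the limit on day 6 alone, at -1.06. NDUFA9, which sits where the matrix arm meets the membrane arm, had 39.3, 20.5, 19.7 and 18.7 FPKM and was past the limit on day 9 alone, at -1.03, although its ratios of -0.90 and -0.96 on days 3 and 6 were close to that. For NDUFA9 and NDUFA10 the 3 later libraries resemble each other more than any resembles day 0.

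The most abundant genes of complex I did not share this. NDUFB1 had 296, 302, 354 and 385 FPKM, higher than day 0 on all 3 days, with a log2 ratio of 0.38 on day 9. NDUFS5 had 331, 287, 285 and 330 FPKM. The member furthest above day 0 on day 9 was NDUFA3, at 143, 227, 215 and 206 FPKM, with log2 ratios of 0.66, 0.59 and 0.53, which are past 1.5-fold on days 3 and 6. NDUFB5 had 33.1, 36.4, 39.4 and 43.1 FPKM and a log2 ratio of 0.37 on day 9. None of these 4 genes reached 2-fold on any day. The read-through symbol NDUFC2-KCTD14, which shares exons with NDUFC2, had 4.15, 1.64 and 0.80 FPKM and was listed at 0 on day 9, so no ratio is given for that day although it counts among the 8 members 2-fold lower, which are 7 without it. NDUFC2 itself had 280, 174, 175 and 205 FPKM.

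NDUFA4 is named as a complex I subunit but is found with complex IV, and it had 45.5, 37.5, 38.7 and 48.4 FPKM. Its paralog NDUFA4L2, known as a hypoxia-induced gene, had 0.89, 1.66, 1.93 and 1.14 FPKM and gave between 1.93% and 4.74% of their sum. These low levels are near the minimum of 1 FPKM, and moving NDUFA4 to complex IV left the sums of both complexes on the same side of day 0.

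In complex II, 3 of 4 subunits were lower than on day 0 on each later day and none was past 2-fold. SDHA, the flavoprotein that oxidises succinate, had 45.3, 58.0, 48.2 and 49.4 FPKM, so that day 0 was its lowest library. SDHB, the iron-sulfur subunit that is its partner, had 74.8, 39.9, 42.9 and 47.6 FPKM, with log2 ratios of -0.89, -0.79 and -0.64. SDHC, a membrane anchor, had 66.7, 44.7, 36.6 and 50.3 FPKM, with log2 ratios of -0.57, -0.85 and -0.40. SDHD, the other anchor, had 49.4, 40.0, 40.3 and 43.6 FPKM. SDHA and SDHB thus stood on opposite sides of day 0 in all 3 comparisons. For SDHA the distance from day 0 was small on days 6 and 9, with log2 ratios of 0.09 and 0.12.

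Complex III showed a split between its large and small subunits. The core proteins UQCRC1 and UQCRC2 and the Rieske iron-sulfur protein UQCRFS1 summed to 66.5%, 61.6% and 67.7% of day 0, and all 3 were below day 0 on each day. UQCRC1 had 91.2, 59.7, 56.0 and 60.1 FPKM, UQCRC2 had 77.4, 54.2, 50.3 and 58.3 FPKM, and UQCRFS1 had 26.4, 15.9, 13.7 and 13.7 FPKM with a log2 ratio of -0.90 on day 9. The 5 small subunits summed to 87.4%, 93.0% and 107%, and all 5 were above day 0 on day 9. UQCRQ had 351, 285, 312 and 362 FPKM, UQCRH, the hinge protein, had 193, 172, 187 and 211 FPKM, and UQCR11 had 50.4, 44.1, 51.8 and 63.5 FPKM with a log2 ratio of 0.33 on day 9. The position of the small subunits against day 0 on days 3 and 6 depends on scaling, since their sums were 100.3% and 105% after each library was rescaled to the same sum, while the core and Rieske genes stayed at 76.4%, 69.7% and 73.4%. UQCRHL, a near copy of UQCRH, stayed below 1 FPKM.

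In complex IV, 9, 9 and 8 of the 10 subunits made in most tissues were below day 0 on days 3, 6 and 9, and none was past 2-fold. COX8A had 450, 293, 307 and 361 FPKM, and COX4I1, a subunit that takes part in early assembly, had 379, 313, 331 and 363 FPKM. They are the 2 members of highest mean FPKM in the complex, and in both day 3 was the lowest library and day 9 the nearest to day 0. COX5A had the lowest day 3 ratio, -0.76, at 171, 101, 109 and 130 FPKM, and COX7C was above day 0 on all 3 days, at 257, 278, 265 and 301 FPKM. All 10 were higher on day 9 than on day 6.

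Isoforms of complex IV that are known from heart, muscle, lung or testis were near absent from these libraries. COX4I1 gave 100% of the COX4 pair and COX6A1, at 346, 270, 273 and 328 FPKM, 100% of the COX6A pair in each library, since COX4I2 and COX6A2 were listed at 0. COX7B, at 25.2, 18.9, 20.4 and 22.3 FPKM, and COX8A gave over 99% of their pairs. COX6B2, an isoform known from testis, had 0.68, 2.42, 1.39 and 0.67 FPKM and was the 1 member 2-fold higher on any day (log2 ratio 1.03 on day 3), although at this level it gave at most 1.36% of the COX6B pair. COX6B1 had 199.98, 176, 184 and 214 FPKM. In the COX7A family the share of COX7A2 went from 81.5% through 79.3% and 77.9% to 77.1%, at 309, 252, 262 and 279 FPKM. COX7A2L, which takes part in joining complexes III and IV into supercomplexes, gave 18.4%, 20.4%, 22% and 22.8%, at 69.6, 64.7, 73.8 and 82.4 FPKM, with a log2 ratio of 0.24 on day 9.

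The sums rest mostly on 1 transcript per gene. The transcript of highest mean FPKM held over 50% of the mean FPKM in 73 of 81 members and over 90% in 37, with a median share of 87.0%, and 14 members had a single transcript listed. The leading transcript differed between libraries in 6 members, which were ATP5C1, COX6B2, COX6C, NDUFA4L2, NDUFB11 and UQCRC2. In ATP5C1, the transcript with the highest mean (ENST00000356708) had 99.9, 35.2, 36.7 and 44.0 FPKM, and a further transcript (ENST00000335698) had 57.3, 50.9, 35.7 and 30.9 FPKM. The first of these was lowest on day 3 and the other on day 9, so the sum of 157, 86.1, 72.5 and 74.9 FPKM joins transcripts of unlike course.

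The 13 protein-coding genes of mitochondrial DNA, whose products join the nuclear-encoded subunits in complexes I, III, IV and V, lay higher against day 0 than the nuclear-encoded members did. They summed to 44313, 40853, 41408 and 47817 FPKM, which is 92.2%, 93.4% and 108% of day 0, and 0 of 13 were past 2-fold on any day as deposited, while 1 was 2-fold higher on day 9 under either rescaling. Their median log2 ratio was -0.03, 0.05 and 0.18 on days 3, 6 and 9, where that of the nuclear-encoded members was -0.34, -0.34 and -0.22. MT-ND3 of complex I had 1844, 2830, 3130 and 3637 FPKM, with a log2 ratio of 0.98 on day 9. MT-CO1 of complex IV had 4164, 5164, 5194 and 5827 FPKM, whereas MT-CO2 of the same complex had 3922, 2827, 2418 and 2701 FPKM. Genes of the same complex and the same genome thus lay on both sides of day 0. After rescaling to the same sum, the mitochondrial genes summed to 106%, 106% and 117% of day 0, so their position on days 3 and 6 depends on scaling. Their medians were then 0.17, 0.23 and 0.29, beside -0.14, -0.17 and -0.11 for the nuclear-encoded members, so which set lay nearer to day 0 depends on scaling as well. MT-ATP6 and MT-ATP8, and MT-ND4 and MT-ND4L, overlap, and the division of their reads is uncertain.

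Subunits and carriers with other symbols resembled the members. Of 12 such genes, 9 were in the table, and their median log2 ratio was -0.33, -0.31 and -0.24, with 0 past 2-fold on any day. CYC1, cytochrome c1 of complex III, had 66.4, 50.7, 53.5 and 54.7 FPKM, and CYCS, the mobile carrier cytochrome c, had 125, 83.7, 94.1 and 107 FPKM. NDUFAB1, the acyl carrier protein of complex I, had 101, 53.4, 62.9 and 76.9 FPKM, while ATPIF1, an inhibitor of the ATP synthase, was above day 0 throughout at 265, 321, 287 and 333 FPKM.

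Assembly factors, which build the complexes without staying in them, were also mostly below day 0, with few past 2-fold. Beside the counts of this and the later lists, 5.3%, 6.42% and 6.52% of all symbols were 2-fold lower on days 3, 6 and 9. In the other direction, 8.13%, 9.01% and 9.6% of all symbols were 2-fold higher. For complex IV, 2, 3 and 3 of 24 were 2-fold lower and 0 were higher, with a median of -0.32, -0.35 and -0.39. COX20, a chaperone of the MT-CO2 product, had 13.7, 3.41, 2.67 and 1.98 FPKM and fell past 2-fold on all 3 days, with log2 ratios of -1.73, -2.0 and -2.30. TACO1, which activates translation of MT-CO1, had 29.6, 11.7, 12.6 and 13.5 FPKM, with log2 ratios of -1.27, -1.17 and -1.07. The counts for complex IV were 2, 2 and 2 with the same median and 2, 1 and 2 with the same sum. COX18, which inserts the MT-CO2 product into the membrane, had 7.41, 4.54, 3.19 and 2.39 FPKM and was past the limit on days 6 and 9. For complex I, 0, 0 and 1 of 14 were 2-fold lower (FOXRED1, at 16.2, 9.53, 8.60 and 7.60 FPKM), with a median of -0.30, -0.29 and -0.26. For complex II, 1, 0 and 0 of 4 were 2-fold lower (SDHAF3, at 8.13, 3.42, 6.45 and 6.04 FPKM), with a median of -0.17, -0.15 and -0.14. For complex III, 0 of 6 were lower and 1 was higher on day 9, with a median of -0.17, -0.40 and -0.50. That 1 was UQCC2, at 73.6, 119, 133 and 151 FPKM. The calls of FOXRED1 and SDHAF3 were lost under both rescalings. COX18, FOXRED1, SDHAF3 and UQCC2 were named after their values were seen. For complex V, 0 of 3 were past the limit, with a median of -0.44, -0.34 and -0.27. The median of complex II factors on days 3 and 6 and that of complex III factors on day 3 were just above 0, at most 0.02, after rescaling to the same sum.

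Genes of coenzyme Q synthesis, which supplies the electron carrier between complexes I, II and III, had a median log2 ratio of -0.63, -0.51 and -0.58. Of 12 genes, 4, 5 and 2 were 2-fold lower and 1 was higher on each day. COQ3, a methyltransferase of the pathway, had 12.1, 3.37, 2.91 and 3.45 FPKM, and COQ2, which attaches the side chain, had 17.4, 8.14, 7.64 and 6.07 FPKM, and both fell past 2-fold on all 3 days as deposited. The counts of lower genes were 1, 3 and 2 with the same median and 1, 2 and 2 with the same sum, so most calls of day 3 depend on scaling. The others past the limit, named after their values were seen, were PDSS1 and PDSS2, which make the side chain, on day 3, and PDSS1, COQ7 and COQ9 on day 6. ADCK3, an atypical kinase of the same pathway, rose on all 3 days, at 3.87, 19.2, 20.3 and 21.1 FPKM.

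Among 16 compared genes of mitochondrial transcription and biogenesis the median was -0.39, -0.42 and -0.31, and 0, 2 and 2 were 2-fold lower. Both were named after their values were seen. NRF1, whose core letters were searched above, had 10.8, 5.64, 4.89 and 4.22 FPKM, with log2 ratios of -0.84, -1.01 and -1.18. SSBP1, which binds single-stranded mitochondrial DNA, had 153, 77.6, 72.8 and 73.4 FPKM. Under either rescaling 0, 0 and 1 were 2-fold lower, so that neither gene was past the limit on day 6. The other factors whose letters were searched changed less. YY1 had 50.2, 54.8, 51.1 and 49.9 FPKM, with log2 ratios of 0.12, 0.02 and -0.01. For GABP, GABPA had 11.3, 11.9, 9.78 and 9.47 FPKM, with log2 ratios of 0.07, -0.19 and -0.24. GABPB1 had log2 ratios of -0.37, -0.24 and -0.16. Whether the level of NRF1, GABP or YY1 bears on the members was not tested.

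**Figure D5:**
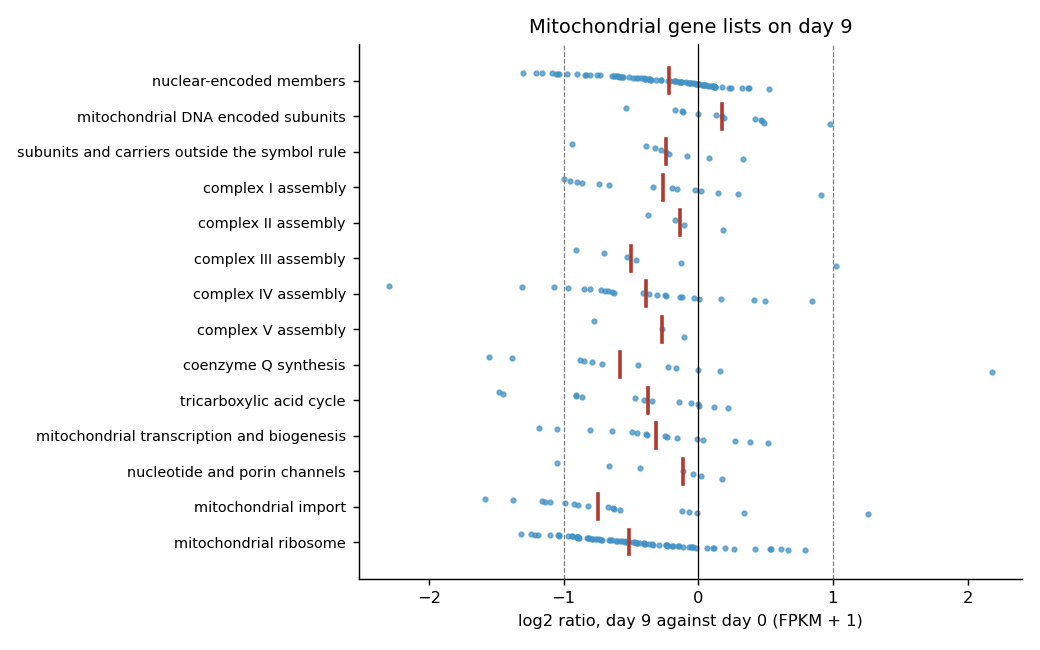
Log2 ratio of day 9 against day 0 (x axis, after 1 was added to each FPKM) for single genes (points) of the nuclear-encoded members and of mitochondrial gene lists (rows), with the median of each row as a red bar and dashed lines at 2-fold. The medians run from -0.74 for mitochondrial import to 0.18 for the genes of mitochondrial DNA, with the nuclear-encoded members at -0.22.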

How the data were processed

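RNA of hFOB 1.19 cells was sequenced once per time point, after removal of ribosomal RNA. The authors deposited FPKM per transcript with gene symbols, per the file headers. The program behind the FPKM is not given in the sources used here. The methods describe alignment with Bowtie and TopHat, and the submitters' processing notes list Bowtie 0.12.2 and the mouse build mm8, although transcripts carry human identifiers. The methods describe RNase R, which digests linear RNA, for the mRNA libraries, and its effect on FPKM was not tested. The 9 deposited comparison tables hold the authors' fold changes, p-values and q-values and were not used, nor were 30 other columns of values.

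FPKM were summed per symbol, 1 was added, and log2 ratios were taken for symbols of at least 1 FPKM in any library, with a limit of 2-fold. The rule was run on simulated data with changes larger than the limit in well-expressed genes and little noise. That run checks the computation alone and says nothing of how reliable the calls in these libraries are. Named are members past the limit in any comparison, the 2 of highest mean FPKM per complex, SDHA to SDHD, paralogs that reach 1 FPKM, the 5 members furthest above and the 5 furthest below day 0 on day 9, and listed genes past the limit on all 3 days, up to 3 a list. Other genes were named after their values were seen, and 1 member is counted but not reported here by name. Members, the 15 gene lists and the groups of subunits were chosen with earlier results of these data known, and the groups after the values were seen. Promoter windows are from RefSeq (GRCh38.p14). Alternatives changed the pseudocount, the minimum, the limit, the scaling and the use of 1 transcript. Python 3.11.15, numpy 2.4.6, pandas 2.3.3 and matplotlib 3.10.9 were used. Of 4 libraries, none has a replicate, so no error or interval can be given.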

Additional observations from a re-analysis of the deposited data

How the results depend on the processing

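No paired analysis was possible because no day has more than a single library. Without a minimum, with a minimum of 10 FPKM, with a pseudocount of 0.1 and with the leading transcript alone, the numbers of members past 2-fold stayed within 1.5 times those reported and the medians within 0.1. The genes called did not all stay the same. Among members past the limit on any day as deposited, the leading transcript alone lost 3 calls and gained 3. Those lost were ATP5D on day 6 (-0.87) and ATP5S on days 6 and 9 (-0.95 and -0.93). Scaling mattered more. The 6, 10 and 8 members past 2-fold on days 3, 6 and 9 became 3 and 4 on days 3 and 9 with FPKM rescaled to the same median, and 2, 4 and 4 with FPKM rescaled to the same sum. With a limit of 1.5-fold they were 26, 30 and 21. Rescaled to the same sum, the median of the members was -0.14, -0.17 and -0.11 and that of all symbols 0.10, 0.08 and 0.02, so the members lay 0.24, 0.24 and 0.13 below all symbols, where they lay 0.26, 0.26 and 0.14 below them as deposited. ATP5B was the 1 member 2-fold lower on day 3 under that scaling, and it was 2-fold lower on days 6 and 9 as well.

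Rescaled to the same sum, complexes I to V summed to 91.4%, 88.8%, 95.5%, 91.1% and 81.6% of day 0 on day 3, to 89.7%, 80.5%, 98.2%, 92.1% and 76.9% on day 6, and to 94.5%, 87.7%, 107%, 99.99% and 78.0% on day 9. Complex III on day 9 thus reversed, as it did at 105% with the same median. So did the small subunits of complex III, at 100.3% and 105% on days 3 and 6, and the genes of mitochondrial DNA, at 106% and 106%. F1 stayed at 56.4%, 50.8% and 50.1%. With the leading transcript alone, 9, 14 and 12 genes of the mitochondrial ribosome, 3, 3 and 5 complex IV assembly factors, 5, 4 and 3 genes of coenzyme Q synthesis and 0, 0 and 1 of transcription and biogenesis were 2-fold lower. The causes were not tested. FPKM hold no counts, so what depth limits could not be worked out. The rescaling of sums and the scaled list medians were chosen after the data were seen.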

Other observations

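The lists of mitochondrial import, of the mitochondrial ribosome and of the tricarboxylic acid cycle had lower medians on each day than the oxidative phosphorylation members, and the list of channels had higher ones. Of 18 genes of mitochondrial import, which carry nuclear-encoded proteins through both membranes, 8, 9 and 5 were 2-fold lower on days 3, 6 and 9, where 5.3%, 6.42% and 6.52% of all symbols were, and the median log2 ratio was -0.90, -0.88 and -0.74. The counts were 7, 7 and 5 with each library rescaled to the same median and 4, 4 and 4 with the same sum. TIMM8B, a small chaperone of the intermembrane space, had 56.0, 24.0, 18.5 and 18.0 FPKM and fell past 2-fold on all 3 days as deposited. TIMM13, a chaperone of the same compartment, had 79.7, 38.6, 29.4 and 30.1 FPKM, and TOMM22, a receptor of the outer membrane, had 48.2, 21.3, 20.6 and 21.0 FPKM. TOMM20 and TIMM10 were the other 2 that were 2-fold lower on day 9, at 84.8, 37.0, 37.2 and 38.0 FPKM and at 96.1, 32.3, 36.8 and 44.4 FPKM. TOMM7, a small subunit of the outer membrane pore, went the other way, at 121, 217, 236 and 291 FPKM, and was 2-fold higher on day 9 (log2 ratio 1.26). TOMM20, TIMM10 and TOMM7 were named after their values were seen.

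Of 77 genes of the mitochondrial ribosome, which translates the mRNAs of mitochondrial DNA, 9, 10 and 8 were 2-fold lower and 0 were higher. Of all symbols, 5.3%, 6.42% and 6.52% were lower and 8.13%, 9.01% and 9.6% higher. In this list 6 genes were 2-fold lower on all 3 days, and the median log2 ratio was -0.58, -0.61 and -0.52. The counts of lower genes were 5, 7 and 5 with the same median and 4, 5 and 4 with the same sum, without a rescaled share of all symbols to set beside them. MRPL20 had 130, 49.9, 51.6 and 51.4 FPKM, MRPS7 had 44.1, 20.8, 16.6 and 18.0 FPKM, and MRPL3 had 82.7, 34.1, 35.5 and 35.1 FPKM. Of 14 genes of the tricarboxylic acid cycle, which delivers NADH and succinate, 2, 3 and 2 were 2-fold lower, with a median of -0.36, -0.38 and -0.38, and 1, 2 and 2 were so under either rescaling. FH, fumarate hydratase, had 64.1, 30.8, 24.2 and 22.3 FPKM, and IDH3B, a subunit of isocitrate dehydrogenase, had 70.3, 25.3, 21.9 and 25.1 FPKM, and the third on day 6 was CS, citrate synthase, at 131, 66.2, 63 and 69.5 FPKM, also named after its values were seen. Of 7 adenine nucleotide, phosphate and porin channel genes, 1 was 2-fold lower on each day, with a median of -0.32, -0.20 and -0.11, which was 0.01 on day 9 after rescaling to the same sum. That gene was SLC25A3, the phosphate carrier that supplies the ATP synthase, at 357, 172, 165 and 172 FPKM, which was past the limit on day 6 alone with the same median and on no day with the same sum. The medians of the import, ribosome and tricarboxylic acid cycle lists stayed below 0 under both rescalings and with the leading transcript alone.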
